A study of Mus musculus with 2 samples.

Results

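The genes described here carry bone morphogenetic protein (BMP) and ALK1 signals in endothelial cells (ECs), and comprised 10 of the 31053 genes counted: the receptors Bmpr2, Acvrl1 and Tgfbr2, the co-receptor Eng, the transducer Smad1, the inhibitors Smad6 and Smad7, and the targets Id1, Id2 and Id3. They were picked by symbol as known parts of the pathway, with earlier results of these data known. All 10 were measured in each class of ECs and in both libraries.

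In lung endothelium, circulating BMP9 and BMP10 bind ALK1 (encoded by Acvrl1) and BMPR2 with the help of endoglin (encoded by Eng). The receptors phosphorylate SMAD1 and its relatives, which enter the nucleus and induce the ID genes as well as the inhibitors SMAD6 and SMAD7, which damp the pathway. Inherited loss of BMPR2 causes pulmonary arterial hypertension, and loss of ALK1 or endoglin causes hereditary haemorrhagic telangiectasia, a disease of malformed vessels.

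Lung cells of wild-type C57BL/6 mice, 8 to 10 weeks old, were sorted for the endothelial surface protein PECAM1 at 6 h after injection into the tail vein. The control library came from mice given phosphate-buffered saline (PBS), and the metastatic library from mice given 200000 cells per mouse of B16-F10, a melanoma line of the same mouse strain that carried a green dye. Each library pooled 2 mice and each group held 1 library, so no spread between mice could be estimated, no test was made, and all intervals cover counting error only. The sort used PECAM1 alone, so it could retain blood cells that carry PECAM1.

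In these droplet libraries RNA molecules were counted by unique molecular identifiers (UMIs), random tags added before amplification. Cells were barcodes with 1000 to 5000 genes and under 20% mitochondrial UMIs, which gave 7134 control and 6466 metastatic cells from 67929614 and 64733724 UMIs. A cell was an aerocyte, vein or artery cell when it held 2 or more of 3 markers (Ednrb, Fibin and Tbx2 for aerocytes, Slc6a2, Car8 and Bst1 for veins, Gja5, Bmx and Fbln5 for arteries). It was a general capillary (gCap) cell when it held 2 or more of Gpihbp1, Aplnr, Kit and Lpl and belonged to none of those classes. The 46 control and 32 metastatic cells that met more than 1 of the aerocyte, vein and artery rules were left out of all classes. The gCap class held 5020 control and 4519 metastatic cells, the aerocytes 1364 and 1086, the arteries 63 and 59, and the veins 247 and 304. Median depth per cell was 5950 and 6275 UMIs in gCap cells and between 7276 and 8422 in the other classes, and 16 barcodes were called in both libraries, where unrelated barcodes would share 6.79. Pan-endothelial markers (Pecam1, Cdh5, Cldn5, Egfl7 and Tie1) were found in all classes, each in at least 63.5% of the cells. In the vein cells the arterial marker Gja5 was at 0 in both libraries, but Fbln5 was found in up to 54.9% of cells.

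The promoters of 4 members are shown because their genes separated the classes (Smad6 and Id2), differed between the libraries (Eng), or are classical BMP targets (Id3). Promoters of 7 of the 10 members were matched by symbol in RefSeq (GRCm38.p6), and the window runs from 250 bases before the RefSeq start site to 10 bases after it. Smad6 lies at chr9:64022050-64022309 on the minus strand, Id2 at chr12:25096083-25096342 on the minus strand, Eng at chr2:32646345-32646604 on the plus strand, and Id3 at chr4:136143572-136143831 on the plus strand. Capitals mark 3 motifs known to be bound by SMAD proteins and searched on both strands: GGCGCC (a BMP-type GC-rich element), CAGAC with its reverse complement GTCTG (the short SMAD box), and GTCTAGAC (the palindromic SMAD box, which holds neither of the other motifs).
Smad6: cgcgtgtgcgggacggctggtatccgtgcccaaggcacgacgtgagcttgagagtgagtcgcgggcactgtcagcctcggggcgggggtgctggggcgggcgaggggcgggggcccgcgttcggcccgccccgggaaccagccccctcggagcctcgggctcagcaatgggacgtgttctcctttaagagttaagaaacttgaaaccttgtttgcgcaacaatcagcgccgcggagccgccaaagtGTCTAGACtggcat
Id2: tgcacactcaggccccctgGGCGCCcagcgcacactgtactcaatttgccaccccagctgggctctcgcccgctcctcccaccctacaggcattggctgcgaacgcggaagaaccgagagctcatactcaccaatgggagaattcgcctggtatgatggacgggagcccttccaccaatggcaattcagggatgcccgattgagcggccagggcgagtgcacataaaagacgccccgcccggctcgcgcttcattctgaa
Eng: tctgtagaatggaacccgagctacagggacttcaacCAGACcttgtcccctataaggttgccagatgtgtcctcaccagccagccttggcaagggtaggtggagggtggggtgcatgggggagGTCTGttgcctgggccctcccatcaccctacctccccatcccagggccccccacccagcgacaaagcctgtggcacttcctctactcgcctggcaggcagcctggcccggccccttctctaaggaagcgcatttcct
Id3: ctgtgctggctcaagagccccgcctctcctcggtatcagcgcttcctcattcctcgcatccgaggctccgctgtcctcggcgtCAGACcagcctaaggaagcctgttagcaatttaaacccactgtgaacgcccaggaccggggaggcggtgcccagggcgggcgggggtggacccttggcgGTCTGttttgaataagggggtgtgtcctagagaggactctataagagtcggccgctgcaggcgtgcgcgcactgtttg

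Smad6 held GTCTAGAC starting at position -4, across the start site, a motif that 0.177% of the 32851 RefSeq promoters of this length hold. Id2 held GGCGCC at position -231, as 9.96% of all promoters do, and Bmpr2 held it at position -105. Eng and Id3 held CAGAC in both orientations, at positions -214 and -127 in Eng and -167 and -68 in Id3. CAGAC or its reverse complement is common, in 44% of all promoters, and a match in letters does not show that a factor binds there.

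Levels are given in CPM, the UMIs of a gene in all cells of a class, scaled to 1000000 UMIs over all genes, so a level is relative to the other RNA of the class. A gene was called higher or lower between libraries past a log2 ratio of 0.32 either way, if it reached 50 CPM in either library and 100 UMIs over both. All 10 members passed this filter in all 4 classes. The gCap cells gave the deepest view, and there 1 member of 10 was called higher, Eng, and 0 were called lower, although Id1 lay at the threshold. Over the 3758 genes that passed in these cells, 6.09% were called higher and 4.66% lower. The median log2 ratio of the members was 0.10 and that of all genes tested 0.02.

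Eng, at chr2:32646595-32682669 on the plus strand (GRCm38), encodes endoglin, the co-receptor that presents BMP9 and BMP10 to ALK1. In gCap cells it was at 692 CPM (683 to 701) in the control library and 913 CPM (902 to 923) in the metastatic library. The log2 ratio was 0.40 (95% interval 0.37 to 0.42), above that of 96% of the genes tested. Eng RNA was therefore higher in the metastatic gCap cells by 1.32-fold, and the 2 libraries' intervals did not overlap. After subtraction of free RNA, at an estimated 24.1% in the control and 15.6% in the metastatic library, the log2 ratio was 0.32, on the threshold and no longer called.

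Eng was on the same side in every class. Aerocytes, the thin capillary cells that cover the gas exchange surface, held 715 and 810 CPM, a log2 ratio of 0.18 (0.13 to 0.22). Artery cells held 738 and 1040 CPM, with a log2 ratio of 0.49 (0.30 to 0.69) past the threshold. Vein cells held 614 and 738 CPM, with a log2 ratio of 0.26 (0.16 to 0.37). Eng was the only member whose interval lay above 0 in each of the 4 classes, which held for 3.83% of the 1750 genes that passed the filter in all of them. The classes came from the same pools of mice and are not replicates.

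Id1, at chr2:152736251-152737410 on the plus strand, encodes an inhibitor of basic helix-loop-helix transcription factors and is a classical direct target of SMAD1. In gCap cells it was at 868 CPM (858 to 879) in control and 695 CPM (686 to 704) in metastatic cells. The log2 ratio was -0.32 (-0.35 to -0.30), a ratio of 0.8 that lay on the threshold, just inside it before rounding, with 4.71% of the genes tested lower. Under another scaling, with cells weighted equally or at equal depth, the ratio lay just past the threshold (log2 ratio -0.34 in each case). Id1 was thus a borderline call in gCap cells whose interval was far from 0.

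The lower Id1 level recurred across classes. Vein cells held 895 and 690 CPM, a log2 ratio of -0.38 (-0.47 to -0.28), the one class in which Id1 was called lower. Aerocytes held 1012 and 869 CPM (log2 ratio -0.22), and artery cells 1095 and 905 CPM (log2 ratio -0.28). Id1 was the only member with its interval below 0 in each of the 4 classes, as were 4.29% of the 1750 genes tested in all. The plot of the log2 ratios shows Eng to the right of 0 and Id1 to the left of 0 in every class.

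**Figure D1:**
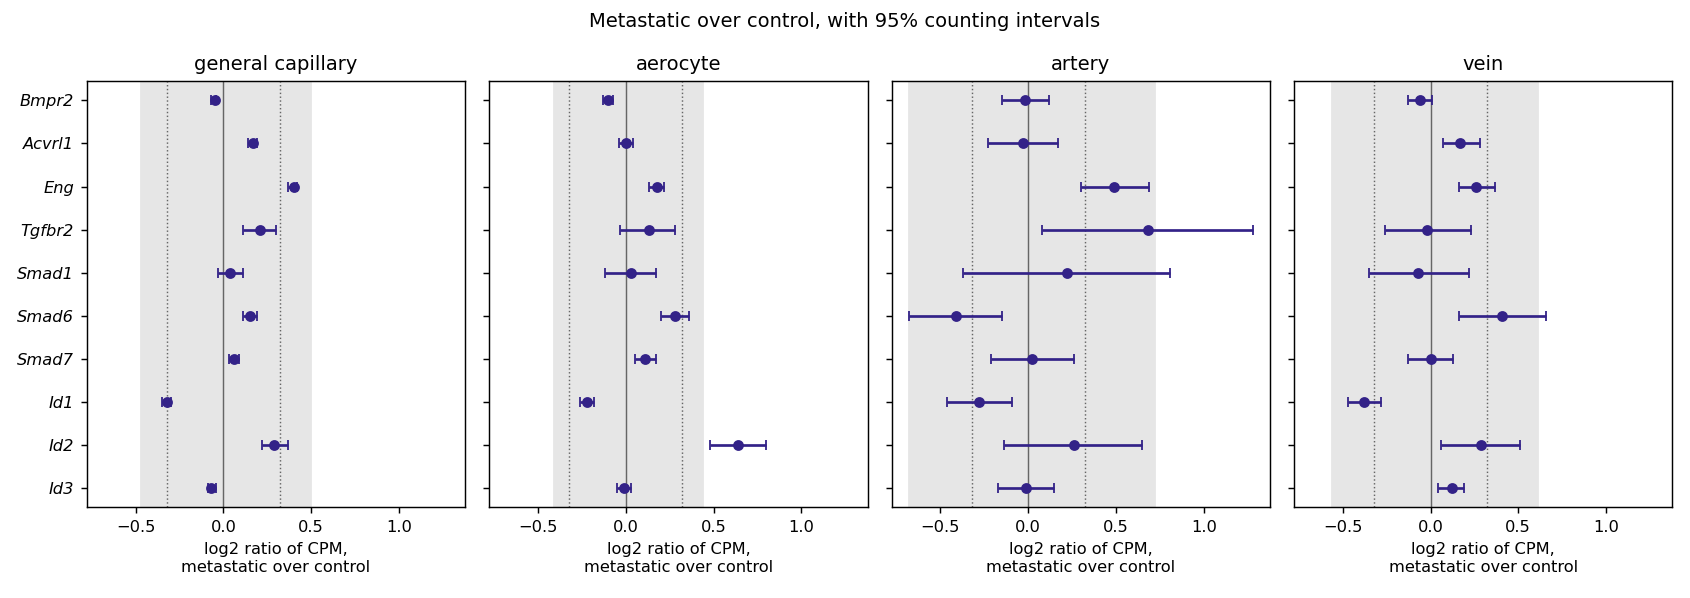
Log2 ratio of CPM, metastatic over control, for each gene (rows) in the 4 classes (panels), with points for the ratio and bars for the 95% counting interval. Grey bands hold the middle 95% of all genes tested in that class and dotted lines mark a log2 ratio of 0.32 either way. Eng lies between 0.18 and 0.49 and Id1 between -0.38 and -0.22 over the classes, and the artery intervals are the widest.

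Id2 and Id3, the relatives of Id1, had other ratios. Id2 was at 82.8 CPM in control and 101 CPM in metastatic gCap cells, a log2 ratio of 0.29 (0.22 to 0.37) inside the threshold. In aerocytes it was called higher, at 48.7 and 75.9 CPM with a log2 ratio of 0.64 (0.48 to 0.80), above 99.1% of the genes tested there. Only the metastatic level reached the filter of 50 CPM in aerocytes, so a call of lower was not possible. The level in these cells was low, with 551 and 712 UMIs in all, and after subtraction of free RNA the log2 ratio was 1.61. Over the same cells the epithelial markers (Epcam, Sftpc and Scgb1a1) summed to 609 and 87.8 CPM, with Epcam at 0 in metastatic cells, and the platelet markers (Pf4, Ppbp and Itga2b) to 68.6 and 144 CPM. Without all cells that held other lineage markers the Id2 log2 ratio was 0.64. Id3 was at 1165 and 1113 CPM in gCap cells, a log2 ratio of -0.07 (-0.09 to -0.04). In vein cells it was at 1145 and 1243 CPM, a log2 ratio of 0.12 (0.04 to 0.19), and in aerocytes and arteries its interval held 0. In gCap cells the Id2 interval thus lay above 0, that of Id3 just below 0 and that of Id1 further below.

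The signalling receptors differed little between the libraries. Bmpr2, the type II receptor for BMPs, was at 2093 and 2015 CPM in gCap cells, a log2 ratio of -0.05 (-0.07 to -0.04). Acvrl1, the type I receptor ALK1, was at 880 and 988 CPM there, a log2 ratio of 0.17 (0.14 to 0.19). Tgfbr2, the type II receptor for TGF-beta, was at 54.7 and 63.2 CPM, a log2 ratio of 0.21 (0.11 to 0.30). All 3 stayed inside the threshold in gCap cells, aerocytes and veins. Acvrl1 in aerocytes was at 1116 and 1115 CPM, an interval from -0.04 to 0.04 on the log2 scale.

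Tgfbr2 was called higher in the artery cells, but on few molecules. It was at 81.1 CPM in the control cells (40 UMIs) and 130 CPM in the metastatic artery cells (63 UMIs), a log2 ratio of 0.68 (0.08 to 1.28). Markers of lymphatic ECs (Prox1, Pdpn, Mmrn1 and Reln) summed to 6.08 CPM in control artery cells, with Mmrn1 and Reln at 0, and to 169 CPM in metastatic ones, with all 4 detected. Without the cells that held 2 or more lymphatic UMIs (1 control and 2 metastatic), an alternative added after seeing the data, the log2 ratio was 0.28 and the call was lost. The Tgfbr2 difference in artery cells thus rested on a very small number of cells.

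Smad1, the transducer of BMP signals, was at 104 and 107 CPM in gCap cells, and its interval held 0 in every class. Smad7, an inhibitor of BMP and TGF-beta receptors, was at 494 and 515 CPM in gCap cells, a log2 ratio of 0.06 (0.03 to 0.09). Neither gene was called in any class by the summed UMIs. The largest Smad7 ratio was 0.11 on the log2 scale, in aerocytes, at 392 and 422 CPM. With each cell thinned to 2000 UMIs, Smad7 in artery cells had a log2 ratio of 0.81, past the threshold, where the summed UMIs gave 0.02 (310 and 311 UMIs). This came from 1 random draw over 63 and 59 cells. Thinned to 1000 UMIs, the same cells held a mean of 0.762 and 0.746 Smad7 UMIs, so the difference did not recur. At 2000 UMIs Smad1 in vein cells had a log2 ratio of 0.35, also past the threshold, where the summed UMIs gave -0.07.

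Smad6, at chr9:63953076-64022059 on the minus strand, inhibits the SMAD1 branch and had a ratio that varied with the class. In gCap cells it was at 266 and 295 CPM (log2 ratio 0.15, interval 0.11 to 0.19), and in aerocytes at 244 and 296 CPM (log2 ratio 0.28, interval 0.20 to 0.36). In vein cells it was called higher, at 97.9 and 130 CPM (log2 ratio 0.41, interval 0.16 to 0.66). In artery cells it was called lower, at 572 and 430 CPM (log2 ratio -0.41, interval -0.68 to -0.15). The artery interval did not overlap those of the other 3 classes, and the difference was not tested. With each cell thinned to 2000 UMIs, the variance of Smad6 over artery cells was 1.99 times its mean in control and 1.57 times in metastatic cells. Pure counting gives a value of 1, so the artery interval leaves out spread between cells. Monocyte or macrophage markers (Csf1r, Lyz2 and Cd68) summed to 24.3 and 273 CPM in the artery cells, with Csf1r at 0 in both, and platelet markers to 14.2 and 138 CPM. Without all cells that held other lineage markers the artery log2 ratio was -0.55 and the vein log2 ratio 0.65. With each cell thinned to 2000 UMIs the vein ratio was 0.20 on the log2 scale and no longer called.

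In aerocytes, 1 member of 10 (Id2) was called higher and 0 lower, against 4.45% and 4.38% of the 3908 genes tested. In artery cells 2 members (Eng and Tgfbr2) were called higher and 1 (Smad6) lower, against a large background of 16.8% and 13.4% of 1827 genes, so these counts were near what all genes showed. In vein cells 1 member (Smad6) was higher and 1 (Id1) lower, against 8.82% and 9.36% of 3719 genes. The median log2 ratio of the members was 0.07 in aerocytes, 0.01 in arteries and 0.06 in veins, beside 0.02, 0.00 and 0.00 for all genes tested. The medians of the members thus lay close to those of all genes, and the differences described were those of single genes.

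Some RNA of other cell types also differed between the libraries. In gCap cells the platelet markers summed to 157 CPM in control and 244 CPM in metastatic cells, the red cell markers to 1779 and 742 CPM, and the epithelial markers to 1614 and 951 CPM. All 3 markers of each of these lists were detected in both libraries. In vein cells the epithelial markers summed to 120 and 3470 CPM and the monocyte or macrophage markers to 30.8 and 611 CPM. All cells with 2 or more UMIs of B, T or NK, myeloid, platelet, mesenchymal or epithelial markers were then left out. In the remaining gCap cells Eng (log2 ratio 0.44) and Id2 (0.34) were called higher and Id1 (-0.33) lower. In vein cells the same step took Id1 to -0.31, inside the threshold, and Eng to 0.35 and Id2 to 0.35, past it. Immediate early genes, which respond to tissue dissociation, summed to 9538 and 9774 CPM in gCap cells. Among them Atf3 was called higher, at 427 and 609 CPM (log2 ratio 0.51, interval 0.48 to 0.54). Fos, Fosb, Jun, Junb and Egr1 stayed inside the threshold, with log2 ratios from -0.18 to 0.12.

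The plot of the levels by class shows how the members differed between the classes. For this comparison each class was set against the gCap cells of its own library, with a threshold at a ratio of 1.5. The libraries came from different mice, so each gave its own value of this difference, under its own treatment.

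**Figure D2:**
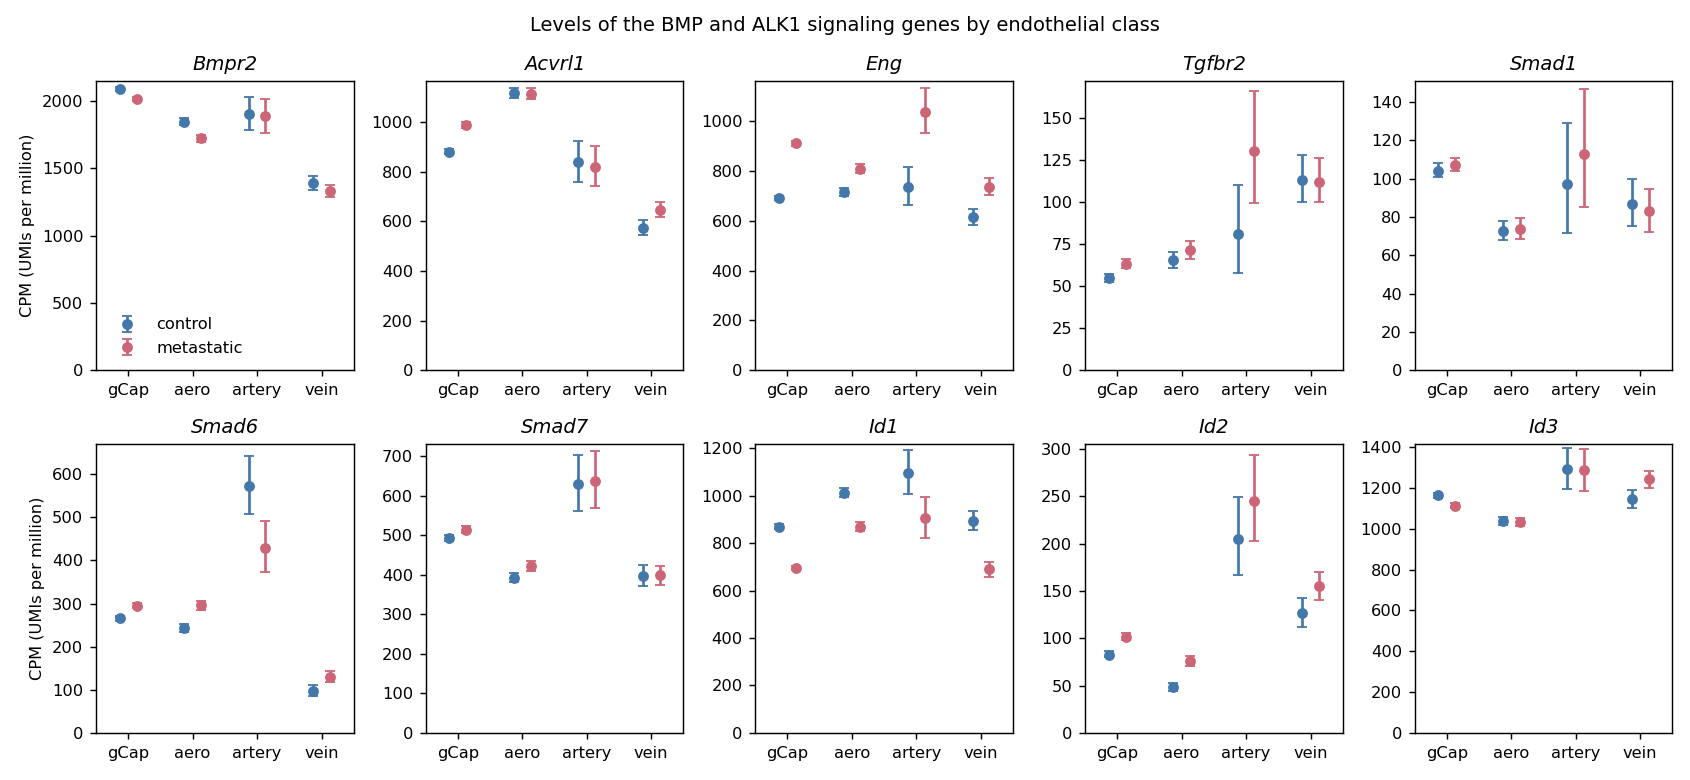
Levels in CPM (vertical axis, from 0, with its own scale for each gene) in general capillary (gCap), aerocyte (aero), artery and vein cells of the control and metastatic libraries, with bars for the 95% Poisson interval. Smad6 is highest in artery cells (572 and 430 CPM) and lowest in vein cells (97.9 and 130 CPM), and Id2 is highest in artery cells (205 and 245 CPM) and lowest in aerocytes (48.7 and 75.9 CPM).

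Smad6 was the member that separated the classes most. Control artery cells held 572 CPM (507 to 643), gCap cells 266 CPM (260 to 271), aerocytes 244 CPM (235 to 253) and vein cells 97.9 CPM (85.3 to 112), and no neighbours in this order overlapped. The highest class was 5.84-fold above the lowest in the control library and 3.3-fold in the metastatic library, where aerocytes and gCap cells overlapped. Arteries held 2.15 times the gCap level in control and 1.46 times in metastatic cells, inside the threshold. Veins held 0.369 and 0.441 times the gCap level, called lower in both libraries.

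Id2, at chr12:25093799-25097140 on the minus strand, was likewise highest in arteries in both libraries. The control order was artery (205 CPM), vein (127 CPM), gCap (82.8 CPM) and aerocyte (48.7 CPM), and the metastatic order was the same, with no overlap between neighbours in either. The artery level was 2.47 and 2.41 times that of gCap cells, and the vein level 1.53 and 1.53 times. Aerocytes held 0.587 times the gCap level in control cells, called lower, and their metastatic level of 75.9 CPM was inside the threshold. The range between the classes was 4.21-fold in control and 3.23-fold in metastatic cells.

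Bmpr2 and Acvrl1 differed most from gCap cells in vein cells. Vein cells held less Bmpr2 than gCap cells, at 0.665 and 0.662 times, and less Acvrl1, at 0.653 and 0.655 times. These 4 ratios lay close to the threshold, and with TMM scaling (log2 ratios from -0.53 to -0.50) or at equal depth they were inside it. Vein cells held more Tgfbr2, at 113 and 112 CPM against 54.7 and 63.2 CPM in gCap cells, ratios of 2.07 and 1.77. Both BMP receptors were therefore lower in veins by this scaling, and the TGF-beta type II receptor was higher, in both libraries. Higher Tgfbr2 was not particular to veins. Artery cells held 81.1 and 130 CPM of it, 1.48 times the gCap level in control, inside the threshold, and 2.05 times in metastatic cells. Their intervals overlapped those of vein cells in both libraries. Acvrl1 was highest in aerocytes, at 1116 and 1115 CPM, and its highest class was 1.94-fold above its lowest in control and 1.72-fold in metastatic cells.

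Over the 10 members the calls against gCap cells can be set beside all genes tested. In aerocytes 0 members were higher in either library (10.1% of all genes in control and 10.1% in metastatic cells), while 1 was lower in control (Id2, background 7.75%) and 0 in metastatic cells (background 8.15%). In arteries 2 members were higher in control (Smad6 and Id2, background 8.6%) and 2 in metastatic cells (Tgfbr2 and Id2, background 8.3%), and 0 were lower in either (12.4% and 11.4%). In veins 2 were higher in both libraries (Tgfbr2 and Id2, background 6.91% and 7.17%), and 3 were lower in both (Bmpr2, Acvrl1 and Smad6, background 7.56% and 8.37%). In vein cells 5 of 10 members were thus called in each library, and 3 in each with TMM scaling, or 2 in control and 3 in metastatic cells at equal depth.

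**Figure D3:**
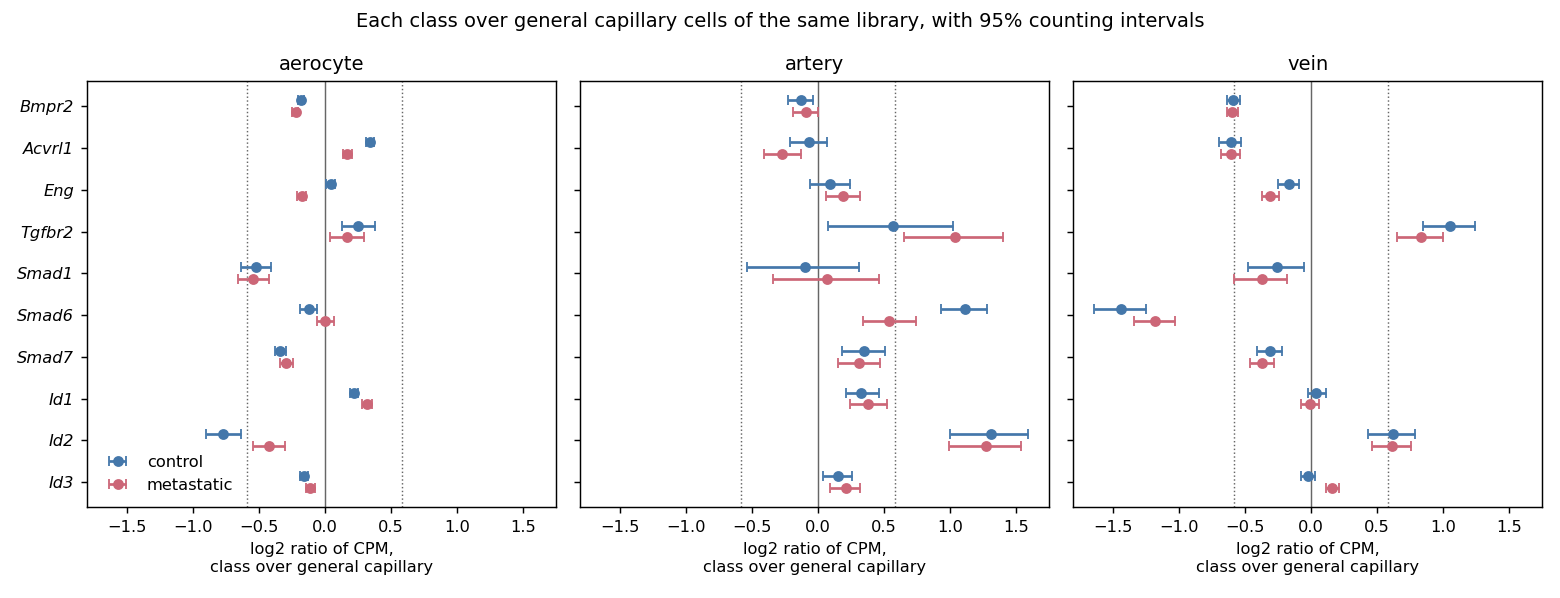
Log2 ratio of CPM of each class (panels) over the gCap cells of the same library, for each gene (rows), with 95% counting intervals and dotted lines at a ratio of 1.5 either way. Control and metastatic points lie close together for most genes, and in veins Smad6 lies at -1.44 and -1.18 while Tgfbr2 lies at 1.05 and 0.83.

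The remaining members varied less between the classes. Smad7 was highest in arteries, at 629 and 639 CPM, and lower in veins (398 and 399 CPM) and aerocytes (392 and 422 CPM), which overlapped. Smad1 overlapped between all neighbouring classes in control cells, but the ends of the order were apart. Control gCap cells held 104 CPM (101 to 108) of Smad1 and aerocytes 72.7 CPM (67.8 to 77.8). Aerocytes held 0.697 times the gCap level of Smad1 in control and 0.688 times in metastatic cells, both inside the threshold. Eng, Id1 and Id3 spanned at most 1.41-fold between the highest and the lowest class of a library. In control cells the Eng levels of arteries, aerocytes and gCap cells overlapped, and in metastatic cells all 4 classes were apart, in the order artery, gCap, aerocyte and vein.

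Calls per cell were read at equal depth, with each cell thinned to 2000 UMIs (73 control and 58 metastatic gCap cells were shallower and left out). At least 1 UMI of Eng was then found in 70.9% (69.6 to 72.2) of control and 78.6% (77.4 to 79.8) of metastatic gCap cells, beside 92.9% and 95.3% before thinning. Id1 was found in 73% (71.7 to 74.2) and 65.2% (63.8 to 66.6), beside 92.2% and 89.2% before thinning. The share of cells with 3 or more UMIs went from 18.2% to 28.4% for Eng and from 25.9% to 18.6% for Id1. Both genes thus differed at the low and the high end of the UMIs per cell, as the plot of UMIs per cell shows. In aerocytes Id2 was found in 9.68% (8.15 to 11.4) of control and 13.3% (11.3 to 15.5) of metastatic cells. In vein cells Id1 was found in 74.4% and 60.7%, and in artery cells Smad6 was found in 61.9% (48.8 to 73.9) and 50.8% (37.5 to 64.1), shares whose intervals overlapped.

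**Figure D4:**
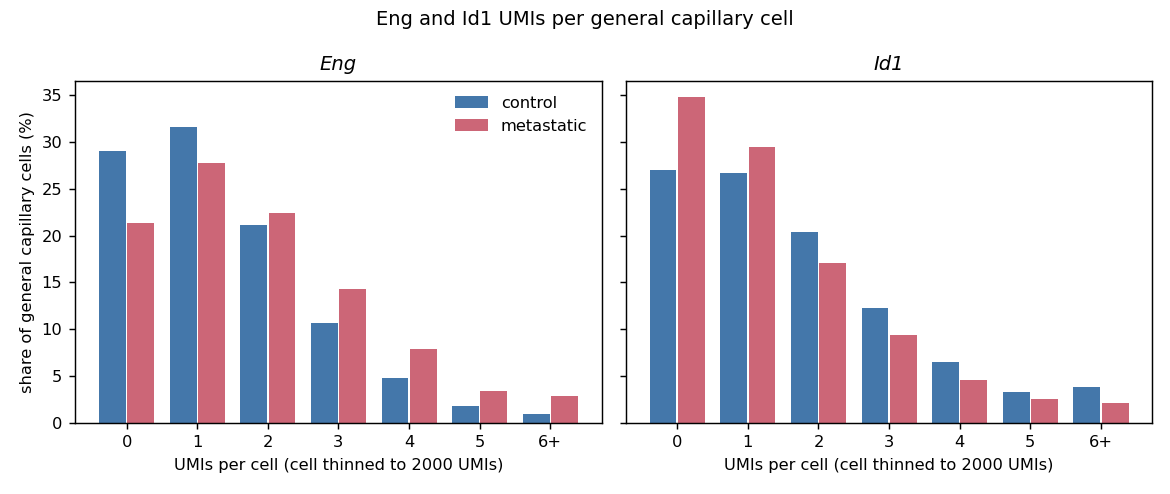
Share of gCap cells (vertical axis, percent) by the number of Eng (left) and Id1 (right) UMIs after thinning each cell to 2000 UMIs, in the control and metastatic libraries. Cells with 0 Eng UMIs make up 29.1% of control gCap cells and 21.4% of metastatic ones, and cells with 0 Id1 UMIs make up 27% and 34.8%.

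Lymphocytes, which should lack endoglin, gave the background of free RNA in the same libraries. Among B-like cells (48 control and 44 metastatic after thinning, median depths of 4412 and 4349 UMIs), Eng was found in 0 of the 48 control cells, which allows a share of up to 6.25% (3 counts of the total), and in 6.82% of the metastatic cells. Id1 was found in 4.17% and 9.09% of them, and Smad6 in 0 of 48 and 0 of 44, which allows up to 6.25% and 6.82% by the same limit. The gCap shares of Eng and Id1, and that of Smad6 at 37.6% and 39.3%, were far above these. Tgfbr2 was found in 25% and 25% of B-like cells and Smad7 in 31.2% and 31.8%, genes that lymphocytes also use. The Tgfbr2 share in gCap cells, 10.1% and 11.2%, was below the share in B-like cells. Id2 was found in 14.2% and 16.1% of gCap cells and in 15.8% and 17.4% of T or NK-like cells (19 and 23 cells), which express it, but in 6.25% and 2.27% of B-like cells.

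Id1 had the highest ratio of variance to mean of the members in the gCap cells of both libraries. After thinning, its variance was 1.78 times its mean in control and 1.73 times in metastatic cells, where a value of 1 is expected of pure counting. For Eng the ratio was 1.27 and 1.39 and for Acvrl1 1.15 and 1.19. Mean Id1 was 1.52 UMIs (SD 1.7) in the 751 control cells without Id3 and 2.46 UMIs (SD 2.19) in the 74 cells with 8 or more Id3 UMIs. In the metastatic cells these means were 1.14 (SD 1.39, 796 cells) and 1.78 (SD 1.65, 76 cells). Metastatic cells thus held less Id1 at both ends of Id3. Over single cells the correlation of log-transformed UMIs was weak for all pairs in gCap cells, with the highest values for Eng with Smad6 (Pearson's r of 0.18 over 4947 control and 0.19 over 4461 metastatic cells).

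A further question was whether the members differ in the capillary cells that the study describes as reactive. A gCap cell was counted as reactive-positive when 3 or more of 7 genes (Pim3, Bcl3, Inhbb, Osmr, Tmem252, Adamts9 and Scarb1) were detected at 2000 UMIs, a list the study picked with these libraries among its data. This held for 323 of 4947 control cells (6.53%) and 463 of 4461 metastatic cells (10.4%). Both libraries thus held such cells, and the members could be compared between them and the other gCap cells within each library.

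Smad6 was lower in reactive-positive cells of both libraries. In control cells it was at 276 CPM in the other cells and 184 CPM in the positive cells, a log2 ratio of -0.58 (-0.86 to -0.32). In metastatic cells it was at 304 and 222 CPM, a log2 ratio of -0.45 (-0.66 to -0.24). Smad7 was also on the lower side, at 502 and 412 CPM in control (log2 ratio -0.29) and 521 and 417 CPM in metastatic cells (log2 ratio -0.32). Smad6 was therefore called lower in both libraries, and Smad7 in neither. With each cell thinned to 3000 UMIs the Smad6 log2 ratios were -0.58 and -0.43.

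Smad1 was on the opposite side. It was at 94.5 and 119 CPM in control (log2 ratio 0.33, interval -0.02 to 0.67) and at 95.8 and 140 CPM in metastatic cells (log2 ratio 0.55, interval 0.27 to 0.82). Bmpr2 was at 2072 and 1824 CPM in control and at 2002 and 1732 CPM in metastatic cells, log2 ratios of -0.18 and -0.21 inside the threshold. Id1 differed little, with log2 ratios of 0.07 (-0.05 to 0.19) and 0.05 (-0.07 to 0.17). Of the 10 members, 1 was called higher (Smad1) and 1 lower (Smad6) in control, against 8.8% and 9.32% of 3829 genes. In metastatic cells 1 was higher (Smad1) and 2 were lower (Smad6 and Id2), against 13.7% and 11.3% of 3890 genes. The median log2 ratio of the members was -0.04 in control and -0.13 in metastatic cells, and that of all genes 0.00 and 0.00. With 2 or more reactive genes in place of 3, the Smad6 log2 ratios were -0.46 and -0.30, and Id2 in metastatic cells was at -0.24, so the metastatic calls of both were lost. At 3000 UMIs the Smad1 log2 ratios were 0.48 and 0.26, and the metastatic call was lost.

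**Figure D5:**
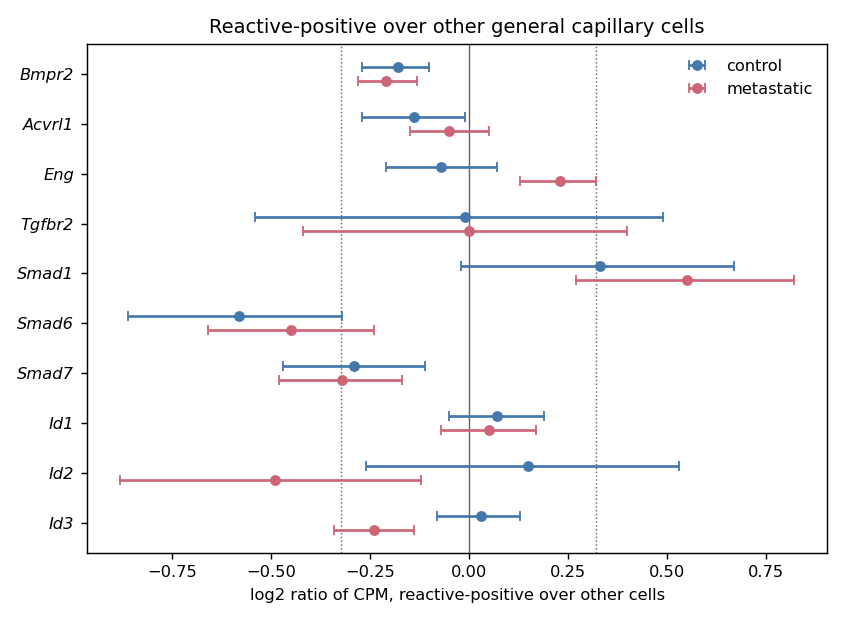
Log2 ratio of CPM between reactive-positive and other gCap cells of the same library, for each gene (rows), at 2000 UMIs per cell, with 95% counting intervals and dotted lines at a log2 ratio of 0.32 either way. Smad6 lies at -0.58 and -0.45 and Smad1 at 0.33 and 0.55, and the points of Id1 lie near 0 in both libraries.

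The difference of Eng and Id1 between the libraries was present in both kinds of gCap cell. Among the cells that were not reactive-positive, Eng was at 704 and 901 CPM (log2 ratio 0.36) and Id1 at 868 and 686 CPM (log2 ratio -0.34). Among the reactive-positive cells, Eng was at 670 and 1053 CPM (log2 ratio 0.65, interval 0.49 to 0.82) and Id1 at 912 and 711 CPM (log2 ratio -0.36, interval -0.52 to -0.20). Leaving the reactive-positive cells out thus kept both genes on their side. Id3, at 1203 and 961 CPM in the reactive-positive cells, had a log2 ratio of -0.32 (-0.46 to -0.18) there and of -0.06 in the other cells.

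Other genes of the pathway were taken from lists written out by function, 52 genes in all. Of 10 ligands, 3 passed the filter in gCap cells. Of these, 1 was called higher and 0 lower, against 6.09% and 4.66% of all genes tested there. The ligand called higher was Bmp4, a BMP ligand made by ECs, at 33.1 and 54.6 CPM (log2 ratio 0.73, interval 0.61 to 0.84). Bmp4 reached the filter of 50 CPM only in the metastatic gCap cells, so it could not be called lower there. It was also called higher in vein cells, at 68.9 and 163 CPM (log2 ratio 1.24, interval 0.97 to 1.52), and in artery cells, at 52.7 and 224 CPM (log2 ratio 2.09, interval 1.46 to 2.76). Bmp6, which signals to hepatocytes in iron control when made by liver ECs, was the ligand with the highest count in gCap cells, at 255 and 313 CPM (log2 ratio 0.30, inside the threshold). Gdf2 and Bmp10, which encode the circulating ligands BMP9 and BMP10, were at 0 UMIs in gCap cells of both libraries.

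Of 8 other receptors 2 passed, of 12 extracellular modulators 1 passed and of 10 further transducers and regulators 5 passed. In gCap cells 0 of them were called in either direction, against 6.09% of all genes higher and 4.66% lower. The highest of these lists were Tgfbr3 (83 and 69.9 CPM, log2 ratio -0.25), a co-receptor for TGF-beta, Crim1 (208 and 232 CPM, log2 ratio 0.16), a BMP-binding membrane protein, and Smurf2 (254 and 268 CPM, log2 ratio 0.08), a ubiquitin ligase for receptors and SMADs. Smad5, a relative of Smad1, was at 64.7 and 57.4 CPM (log2 ratio -0.17). The median log2 ratio of the genes that passed was -0.02 for the receptors and 0.01 for the transducers and regulators, beside 0.02 for all genes.

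Of 7 other genes that BMP9 and ALK1 are known to induce, 4 passed in gCap cells. Of these, 2 were called higher and 0 lower, against 6.09% and 4.66% of all genes tested there. Gja4, which encodes the gap junction protein connexin 37, was at 124 and 210 CPM, a log2 ratio of 0.76 (0.71 to 0.82). Edn1, which encodes the vasoconstrictor endothelin 1, was at 288 and 360 CPM, a log2 ratio of 0.32 (0.28 to 0.36) at the threshold. Both were called higher in all 4 classes, Gja4 with log2 ratios from 0.70 to 0.92 and Edn1 with log2 ratios from 0.32 to 0.59. Of all genes tested, 6.09% were called higher in gCap cells, 4.45% in aerocytes, 16.8% in arteries and 8.82% in veins. How many of all genes were called higher in all 4 classes was not counted, so whether such recurrence is unusual cannot be told. The classes came from the same pools of mice. Tmem100, another such target, was the highest of the list at 1678 and 1626 CPM (log2 ratio -0.05), and Hey1 was at 292 and 276 CPM (log2 ratio -0.08). The targets therefore did not share a direction, with Gja4 and Edn1 called higher, Tmem100 and Hey1 within the threshold and Id1 on its lower edge.

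Of 5 targets of TGF-beta, 1 passed in gCap cells, and it was called higher, as were 6.09% of all genes tested there. Pmepa1, a feedback inhibitor of TGF-beta signals, was at 46.4 and 60.2 CPM there (log2 ratio 0.37, interval 0.27 to 0.47). Only the metastatic level reached the filter of 50 CPM in gCap cells, so a call of lower was not possible. In vein cells Pmepa1 was at 55.3 and 93.4 CPM (log2 ratio 0.76, interval 0.44 to 1.08). Of the ligands, 2 passed in aerocytes with 0 called higher (4.45% of all genes there). In arteries 2 passed with 2 called higher (16.8% of all genes), and in veins 4 passed with 3 called higher (8.82%). In aerocytes, arteries and veins 0 ligands were called lower, against 4.38%, 13.4% and 9.36% of all genes. Mgp, an extracellular BMP inhibitor, was the one listed gene that passed the filter and was called lower in aerocytes, at 149 and 96.6 CPM (log2 ratio -0.62). The part of RNA from other cell types in this value was not tested. In the same aerocytes the epithelial markers summed to 609 and 87.8 CPM, and the mesenchymal markers (Col1a1, Col1a2, Dcn and Pdgfrb) to 38.1 and 25.3 CPM. Smad5 was the one called lower in veins, at 68.4 and 51.9 CPM (log2 ratio -0.40).

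Genes with a level pattern most like those of 3 members were found over the 8 profiles of class and library, among 4673 genes, by Pearson's r of log2(CPM + 1). This is a description over profiles that share their libraries. The 5 most like Acvrl1 were Hmbox1, Rell1, Man1a2, Hnrnpf and Psma3, with r from 0.975 to 0.984. The 5 most like Smad6 were Arfgef1, Lgals3bp, Ist1, Xpo1 and Tnks2, with r from 0.972 to 0.987. The 5 most like Id1 were Bnip3, Sgms1, Aff4, Lgalsl and Tor1aip2, with r from 0.903 to 0.937. Among the members themselves, Id2 and Id3 were the most alike (r of 0.92).

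Cells outside the 4 classes held few of the members' molecules. The 394 control and 466 metastatic cells that met no class rule held between 1.23% and 2.71% of the control UMIs of 8 members, but 6.92% of those of Tgfbr2 and 9.04% of those of Id2. In the metastatic library the shares of Tgfbr2 and Id2 were 7.71% and 8.77%. Their endothelial markers summed to 2044 and 2407 CPM, below all 4 classes (4592 CPM or more), and their monocyte or macrophage markers to 6115 and 4338 CPM. Id2 was at 170 and 169 CPM in these cells, above its gCap level, while Eng was at 213 and 264 CPM, below it. The 46 control and 32 metastatic cells that met more than 1 class rule held at most 1.71% and 1.51% of the UMIs of any member.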

How the data were processed

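Lung cells sorted for PECAM1 were profiled in 2 libraries, 1 control and 1 metastatic, each from 2 pooled mice. The deposited values are raw UMI counts per gene and barcode that the authors made with Cell Ranger on mm10, with no cell calling or normalization. The matrix headers name software version 3.1.0, and the submitters' processing notes also name Seurat.

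Cells were called and classed as described in the report, doublets were kept, and UMIs were summed per class and scaled to CPM. Depths were 67929614 and 64733724 UMIs. Levels carry exact Poisson, ratios exact conditional binomial and shares above 0 exact Clopper-Pearson intervals, all at 95% and for counting error only. The rule named all 10 members, then listed pathway genes called in gCap cells or highest of their list. Members, lists and markers were chosen with earlier results of these data known. With 1 library per group, genes called are those past a ratio, not a test. Ratios and intervals were tested on simulated sums with known changes and pure counting error, which cannot show how they hold under spread between cells or mice. Alternatives covered the cell and mitochondrial filters, doublets (scrublet in scanpy 1.11.5), other lineages, shared barcodes, scaling (TMM of edgeR 4.0.16 and size factors of DESeq2 1.42.0), cell weighting, thinning, free RNA and the level filter. Python 3.11.15, numpy 2.4.6 and scipy 1.17.1 were used with R 4.3.3. Gene positions came from GENCODE M21 on GRCm38, the assembly of mm10, and promoters from RefSeq.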

Additional observations from a re-analysis of the deposited data

Results flagged for a closer look

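Smad6 had opposite sides in different classes. Its log2 ratio, metastatic over control, was -0.41 in artery cells and 0.15 in gCap cells, 0.28 in aerocytes and 0.41 in vein cells, with the artery interval below 0 and the others above 0. The difference between the classes was not tested, since each class held 1 sum per library. The intervals cover counting error only and leave out the spread of Smad6 between artery cells. The artery sums rested on 282 and 209 UMIs from 63 and 59 cells, and the 3 cells with lymphatic markers among them left the artery log2 ratio at -0.35 when they were removed.

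Id3 had a log2 ratio of -0.07 in gCap cells and 0.12 in vein cells, with the intervals on opposite sides of 0. This difference was not tested either, and both ratios lay inside the threshold.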

How the results depend on the processing

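No paired analysis was possible because each group held 1 library. For the same reason no library could be left out. Over 12 to 14 alternatives per class, Eng kept a log2 ratio above 0 in every class and Id1 one below 0 in every class, with gCap ranges of 0.32 to 0.44 and -0.46 to -0.31. Calls were less stable than directions. In gCap cells the members called lower numbered 1 in place of 0 (Id1) with cells free of other class markers, with other lineage markers left out, with TMM or median-of-ratios scaling, with cells weighted equally, when thinned to 2000 UMIs, after subtraction of free RNA, and when reactive-positive cells were left out and the rest thinned, an alternative added after seeing the data that gave the same Id1 value (-0.34) as thinning alone. Those called higher numbered 2 with other lineage markers left out, and 2 after subtraction of free RNA, where Eng itself (0.32) was no longer called. In aerocytes 2 were called higher when thinned and 1 lower after subtraction, and the median log2 ratio of the members was -0.01 when thinned and -0.02 after subtraction (0.00 in gCap cells). In artery cells 2 were called lower with equal weights, when thinned and after subtraction, and 1 higher without cells with lymphatic markers. In vein cells 3 were called higher and 0 lower without other lineage markers, 2 higher when thinned and 2 after subtraction. Against gCap cells, members past a ratio of 1.5 in control aerocytes numbered 2 when thinned or without doublets, and in metastatic aerocytes 1 when thinned. In veins they numbered 3 with TMM scaling in both libraries, and 2 in control and 3 in metastatic cells when thinned. The cause of these shifts was not tested.

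The share of free RNA was set from 5 epithelial genes, as 24.1% in the control and 15.6% in the metastatic library, the lowest over the classes. The choice of the lowest was made after seeing the data, and the profile held only 365 and 422 UMIs of these genes, so both shares are crude. Depth limited the artery cells most, where Tgfbr2, Smad1 and Id2 rested on at most 119 UMIs per library.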
